A study of Mus musculus with 4 samples.

Results

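The 10 genes described here encode transcription factors of the pluripotency network: Pou5f1, Sox2, Nanog, Sall4, Esrrb, Tfcp2l1, Zfp42, Dppa2, Dppa4 and Prdm14. They were taken by gene symbol from the expression tables of a mouse 2-cell embryo study, and each matched 1 of the 47445 gene identifiers in those tables. The study profiled RNA of late 2-cell embryos after knockdown of Uqcc3, whose product helps assemble respiratory complex III in mitochondria. The Uqcc3 siRNA group held 2 libraries of C57BL/6N embryos from 8-week-old females, injected with 5 µM of an siRNA against Uqcc3 at 8 hpi, as the labels write the time. The control group held 2 libraries of the same strain and stage, also from 8-week-old females. By the protocol these controls got a negative-control siRNA at that dose and hour, but their treatment label reads "none", so the sources differ on whether they were injected. The labels name no mutant allele in either group. Embryos of both groups were collected with normal morphology, and full-length cDNA was primed with oligo(dT) and amplified with a single-cell kit. How many embryos went into each library is not stated in the sources read here.

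OCT4 (the product of Pou5f1), SOX2 and NANOG hold the core of the network that keeps cells of the inner cell mass and embryonic stem cells unspecialised. OCT4 and SOX2 bind side by side on composite DNA elements, and SALL4, ESRRB, TFCP2L1, REX1 (Zfp42) and PRDM14 join or stabilise that network. DPPA2 and DPPA4 work as a heterodimer, and in mouse embryonic stem cells they are known to activate genes of the 2-cell stage. At the 2-cell stage the mouse embryo makes its first large wave of its own transcripts while oocyte transcripts are being cleared.

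The RefSeq promoter table for GRCm38.p6 held 9 start sites of 6 members and none for Sall4, Dppa2, Dppa4 and Prdm14. The 250 bases before each start were searched on both strands for an octamer (ATGCAAAT), an octamer-SOX composite (TTTGCAT, any base, ACAAT), a SOX element (ACAATG), an ESRRB element (TCAAGGTCA) and a TATA box (TATAAA). The SOX element can overlap the end of the composite. The promoters of Zfp42 and Tfcp2l1 are shown because both siRNA libraries lay below both controls for these genes under every scaling tried, and that of Nanog because it carried the composite. Capitals mark the octamer in Zfp42 (read on the opposite strand), the composite in Nanog and the TATA box in Tfcp2l1.
Zfp42, chr8:43307010-43307259, minus strand: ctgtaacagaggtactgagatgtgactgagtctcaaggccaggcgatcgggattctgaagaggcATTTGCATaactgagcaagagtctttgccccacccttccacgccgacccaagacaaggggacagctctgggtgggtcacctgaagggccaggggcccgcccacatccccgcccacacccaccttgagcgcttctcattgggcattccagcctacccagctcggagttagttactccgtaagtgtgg
Nanog, chr6:122707239-122707488, plus strand: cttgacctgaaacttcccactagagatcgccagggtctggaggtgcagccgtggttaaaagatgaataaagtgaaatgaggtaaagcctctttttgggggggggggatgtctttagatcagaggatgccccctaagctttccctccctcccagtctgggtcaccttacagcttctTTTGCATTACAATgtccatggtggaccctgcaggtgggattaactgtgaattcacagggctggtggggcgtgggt
Tfcp2l1, chr1:118627695-118627944, plus strand: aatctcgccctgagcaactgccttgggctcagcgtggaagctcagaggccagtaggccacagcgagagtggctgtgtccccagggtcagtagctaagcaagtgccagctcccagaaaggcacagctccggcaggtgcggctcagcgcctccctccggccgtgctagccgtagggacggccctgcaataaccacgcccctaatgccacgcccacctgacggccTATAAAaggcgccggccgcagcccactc
The first base of the Zfp42 octamer lay 186 bases before the start, that of the Nanog composite 75 bases and that of the Tfcp2l1 TATA box 28 bases. Relative to the other Nanog start, whose window is not shown, the same composite lay 151 bases before it. Of 32851 promoter windows of this length, 1.60% held the octamer, 0.0244% the composite, 10.7% the SOX element, 0.387% the ESRRB element and 12.4% the TATA box. The SOX element was also found in 1 of the 2 Pou5f1 windows, and in both Nanog windows where it overlapped the composite. None of the 9 windows held the ESRRB element in these letters. These matches describe the letters and show no binding.

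Depth was about 11200000 and 11600000 fragments in siRNA replicates 1 and 2, and 16200000 and 18200000 in control replicates 1 and 2, estimated from genes with 1 annotated transcript. Summed over all genes, the bounds imply lower totals, 3943021 and 4152915 with siRNA and 6509162 and 6883366 in controls, so depth is known only roughly. Both estimates were lower in the siRNA libraries. Uqcc3 itself had 23.7 and 19.8 FPKM (fragments per kilobase of transcript, scaled to library size) in the siRNA libraries, against 147 and 211 FPKM in the controls. Its siRNA mean was 12.1% of its control mean, a log2 fold change of -2.97 (SE 0.63) with an adjusted p of 0.745 in the limma fit over all genes. The siRNA libraries differed from each other. Over tested genes, which are not independent replicates, the log2 values of siRNA replicate 2 correlated with the other libraries at 0.624 to 0.651, while the others correlated among themselves at 0.867 to 0.875. It had 9771 genes with at least 1 FPKM, against 12073 in siRNA replicate 1 and 12202 and 11818 in the controls. Of 2476 genes with at least 20 FPKM in each of the other 3 libraries, siRNA replicate 2 listed 39 at 0, so a value of 0 there can be a gene that was missed. Replicate 1 stood apart in another measure. Genes of the mitochondrial chromosome held 28.0% and 16.6% of summed FPKM in siRNA replicates 1 and 2, against 17.4% and 18.0% in the controls. siRNA replicate 1 was also the library with the lowest Dppa4, Dppa2 and Sall4, and the part of the mitochondrial share in those values was not tested. Most members are therefore also given for each siRNA library alone.

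All differences below are on the scale of log2(FPKM + 1), siRNA over control, and were fitted with limma to the 12390 genes that reached 1 FPKM in 2 or more libraries. Of the 10 members, 9 passed that filter and Nanog did not. No member passed an adjusted p of 0.05, and neither did any other of the 12390 genes (0%). At an unadjusted p under 0.05 there was 1 member, Tfcp2l1, against 738 genes (5.96%). Counted without a test, in 4 of the 9 tested members (44.4%) both siRNA libraries lay below both controls: Dppa4, Zfp42, Tfcp2l1 and Prdm14. Of all tested genes 30.0% did so. Tfcp2l1 and Prdm14 met the filter of 1 FPKM in 2 libraries through the controls alone, which by itself fixed this order for them. Genes let in that way count in both shares. The count was 3 of 9 with TPM (21.4% of all tested genes), 3 of 9 with quantile normalization (18.7%), 2 of 9 with median-of-ratios scaling (19.1%) and 2 of 4 with a filter at 5 FPKM (34.8%). Without siRNA replicate 1, 1477 genes (11.9%) passed the adjusted threshold, and no member was among them. No member lay above both controls, which 8.60% of all tested genes did, and in 5 members the groups overlapped. The median log2 fold change was -0.73 over the 9 tested members and -0.39 over all tested genes. It stood at -0.97 in siRNA replicate 1 alone, where all genes stood at -0.30, and at -0.45 in siRNA replicate 2 alone, where all genes stood at -0.57. In whole-embryo RNA, fewer cells carrying a transcript and less transcript per cell cannot be told apart. The labels do not tie the replicates to separate mice or injections, so the p-values reflect the spread of these 4 libraries, and that spread may be technical. With 2 libraries against 2, an exact two-sided permutation test of a single gene cannot go below 0.333.

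**Figure D1:**
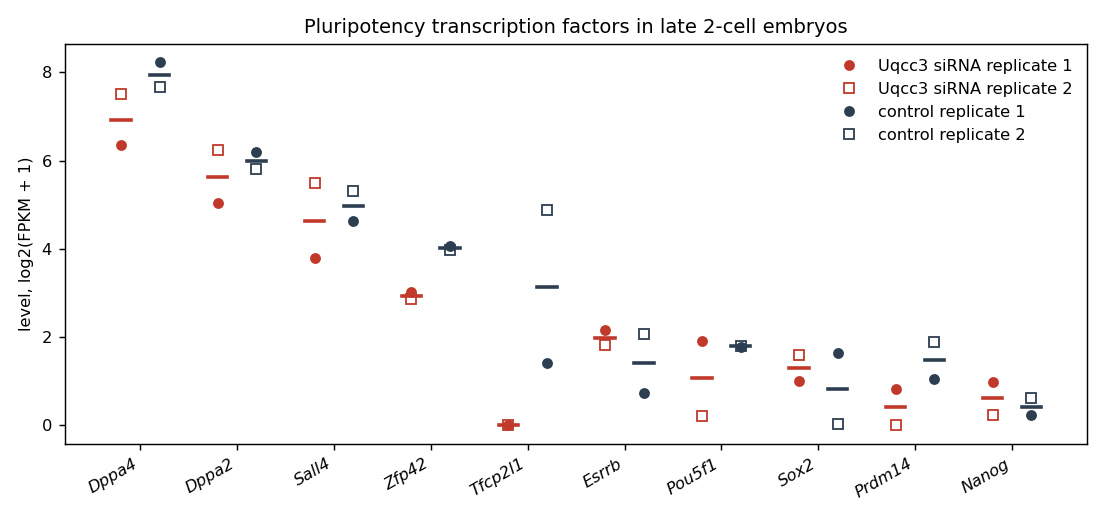
Level of each member in each library, as log2(FPKM + 1), with Uqcc3 siRNA libraries in red left of the control libraries in dark blue. Filled circles are replicate 1, open squares replicate 2, and bars the mean of the 2 log2 values. The groups separate without overlap for Dppa4, Zfp42, Tfcp2l1 and Prdm14, and Dppa4 and Dppa2 stand highest in every library.

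Dppa4 and Dppa2 were by far the most abundant members. All members together summed to 141 and 311 FPKM in the siRNA libraries, against 420.2 and 349 FPKM in the controls. Dppa4 and Dppa2 made up 79.5% and 82.3% of that sum in the siRNA libraries, and 88.6% and 73.9% in the controls. Dppa4 (chr16:48283735-48294292, plus strand) encodes a SAP-domain protein. Its levels were 80.6 and 181 FPKM in siRNA replicates 1 and 2, against 299.9 and 203 FPKM in control replicates 1 and 2. Both siRNA libraries were lower than both controls, but siRNA replicate 2 came close to control replicate 2. The authors' bounds for these 2 values, which cover the estimate within a library and not the spread between libraries, were 171 to 191 and 193 to 213 FPKM. The mean was 131 ± 70.7 FPKM with siRNA and 251 ± 68.7 FPKM in controls (SD, n = 2 each), 52.0% of the control mean. The log2 fold change was -1.02 (SE 0.66, limma adjusted p = 0.750). Taken alone, siRNA replicate 1 differed from the controls by -1.60 and siRNA replicate 2 by -0.45, a smaller drop than the -0.57 of the median gene in that library. Rescaling of the libraries by TPM, by median of ratios or by quantiles gave -0.59, -0.60 and -0.44, and the groups then overlapped.

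Dppa2 (chr16:48310477-48319723, plus strand) encodes the SAP-domain partner of DPPA4 and begins 16184 bases beyond the end of Dppa4. It had 31.8 and 74.9 FPKM in the siRNA libraries, against 72.5 and 55.0 FPKM in the controls. The groups overlapped, with the lowest and the highest value both in siRNA libraries. For Dppa2 the log2 fold change was -0.36 (SE 0.70, limma adjusted p = 0.914), and it was -0.97 in siRNA replicate 1 alone and 0.24 in siRNA replicate 2 alone. A pair measured within a library needs no scaling between libraries. The ratio of Dppa4 to Dppa2 FPKM was 2.53 and 2.41 in the siRNA libraries, against 4.13 and 3.69 in the controls. Its 95% counting intervals were 2.29 to 2.80 and 2.24 to 2.60 in the siRNA libraries, and 3.89 to 4.39 and 3.46 to 3.93 in the controls. The mean ratio was 2.47 ± 0.0844 with siRNA and 3.91 ± 0.316 in controls (SD, n = 2 each), 63.2% of the control ratio. The ratio was looked at after the levels had been seen. Of the 6 pairs among the 4 most abundant members, it was the only pair whose groups did not overlap. The other 12389 tested genes give the background. Their ratio to Dppa2 was below both controls in both siRNA libraries for 12.7% of genes and above for 18.9%. The shares were 8.05% and 16.0% for ratios to Sall4, and 7.63% and 33.9% for ratios to Zfp42. A pair could separate in either direction, so for each of Dppa2, Sall4 and Zfp42 the shares below and above count together. A separation in 1 of 6 pairs is above some of the single shares but not above the combined ones. The intervals hold counting error alone, and PCR copies are not independent molecules.

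**Figure D2:**
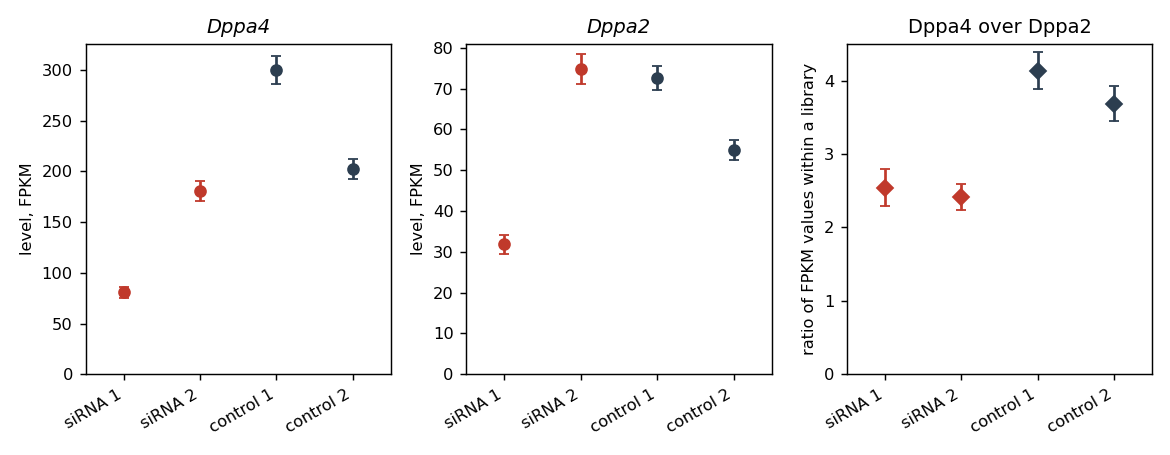
FPKM of Dppa4 (left) and Dppa2 (middle) with the authors' bounds as error bars, and the Dppa4 to Dppa2 ratio within a library with its 95% counting interval (right), siRNA libraries in red left of controls in dark blue. Dppa2 overlaps between the groups, while the ratio is 2.53 and 2.41 with siRNA and 4.13 and 3.69 in controls.

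Zfp42 (chr8:43295068-43307009, minus strand) encodes the zinc finger protein REX1, a marker of naive pluripotency related to YY1. It had 7.08 and 6.31 FPKM in the siRNA libraries, against 15.8 and 14.8 FPKM in the controls. The replicates of each group were close to each other, and the groups did not overlap. These values rest on about 146 and 133 fragments in the siRNA libraries and 463 and 488 in the controls. The mean was 6.70 ± 0.548 FPKM with siRNA and 15.3 ± 0.714 FPKM in controls (SD, n = 2 each), 43.9% of the control mean. Zfp42 thus had a log2 fold change of -1.08 (SE 0.84, limma adjusted p = 0.780), which lay 0.69 below the median of all genes. The SE of limma draws on the spread of genes of like abundance, which was wider than that of Zfp42. The difference was -1.01 in siRNA replicate 1 alone and -1.15 in siRNA replicate 2 alone. Both siRNA libraries stayed below both controls for Zfp42 with TPM, median-of-ratios and quantile scaling. The other alternatives that kept all 4 libraries cannot change the order of libraries for this gene. Over all 14 alternatives the log2 fold change of Zfp42 was -1.18 to -0.69. Its rank moved the same way. In the siRNA libraries 55.4% and 51.4% of tested genes were lower, against 65.8% and 66.3% in the controls.

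Sall4 (chr2:168748332-168767943, minus strand) encodes a zinc finger factor that binds OCT4 and the NuRD complex. It had 12.8 and 43.9 FPKM in the siRNA libraries, against 23.9 and 38.9 FPKM in the controls. Both extremes were siRNA libraries, which differed 3.43 times, and the groups overlapped. Sall4 had a log2 fold change of -0.34 (SE 0.83, limma adjusted p = 0.935), and it was -1.19 in siRNA replicate 1 alone and 0.51 in siRNA replicate 2 alone. Rescaling turned its sign and that of Dppa2, so that these data give neither gene a direction. Among the 4 most abundant members the order Dppa4, Dppa2, Sall4, Zfp42 held in each of the 4 libraries.

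Tfcp2l1 (chr1:118627945-118685168, plus strand) encodes a CP2-family factor downstream of LIF and STAT3 in mouse embryonic stem cells. It was listed at 0 and 0.00865 FPKM in the siRNA libraries, against 1.65 and 28.3 FPKM in the controls. It was nearly undetected in both siRNA libraries, but the 2 controls were themselves 17.1 times apart. Control replicate 1 rested on about 9.09 fragments and control replicate 2 on about 163, so the separation of the groups hangs on few fragments in control replicate 1. The log2 fold change was -3.13 (SE 1.22, limma adjusted p = 0.745). Its size depended on the pseudocount and on the controls, at -6.08 with a pseudocount of 0.1, -1.57 with 5, and -1.40 without control replicate 2.

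Esrrb (chr12:86361117-86521628, plus strand) encodes an orphan nuclear receptor that can take over tasks of NANOG in mouse embryonic stem cells. It had 3.49 and 2.51 FPKM in the siRNA libraries, against 0.674 and 3.19 FPKM in the controls. Control replicate 1 was low and the other 3 libraries were alike, so the groups overlapped. For Esrrb the log2 fold change was 0.58 (SE 0.94, limma adjusted p = 0.892), and it was -0.078 without control replicate 1.

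The core triad was low in all 4 libraries, at 2.78 FPKM or less. Pou5f1 (chr17:35506018-35510772, plus strand) had 2.78 and 0.156 FPKM in the siRNA libraries, against 2.42 and 2.50 FPKM in the controls. siRNA replicate 2 alone was low, at under 1 implied fragment, while siRNA replicate 1 was above both controls. Its log2 fold change was -0.73 (SE 0.92, limma adjusted p = 0.859), and it was 0.13 without siRNA replicate 2. The predicted antisense gene Gm19553 overlaps Pou5f1 exons and was near 0 in all 4 libraries. Sox2 (chr3:34650405-34652461, plus strand) had 1.00 and 2.01 FPKM in the siRNA libraries, against 2.10 and 0.0257 FPKM in the controls. Control replicate 2 was the low library, with about 1 fragment, and the groups overlapped. Its log2 fold change was 0.46 (SE 0.84, limma adjusted p = 0.907), and it was -0.33 without control replicate 2. Sox2 lies inside the long non-coding gene Sox2ot on the same strand without sharing exons, and Sox2ot was at 0 in 3 libraries and 0.60 FPKM in control replicate 2. Nanog (chr6:122707489-122714633, plus strand) had 0.991 and 0.170 FPKM in the siRNA libraries, against 0.180 and 0.532 FPKM in the controls. It overlapped between the groups, did not reach 1 FPKM in any library and was not tested. The 2 annotated Nanog pseudogenes measured here, Nanog-ps1 and Nanog-ps2, were listed at 0 in all 4 libraries.

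Prdm14 (chr1:13113457-13127163, minus strand) encodes a PR-domain zinc finger protein that dampens FGF signalling in mouse embryonic stem cells and is needed for primordial germ cells. It had 0.758 and 0 FPKM in the siRNA libraries, against 1.08 and 2.72 FPKM in the controls. The groups did not overlap, but siRNA replicate 1 with about 22.8 fragments lay near control replicate 1 with about 46.7. The log2 fold change was -1.07 (SE 0.75, limma adjusted p = 0.760), and -0.66 in siRNA replicate 1 alone. It was -2.64 with a pseudocount of 0.1 and -0.35 with 5, and with median-of-ratios scaling the groups overlapped.

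**Figure D3:**
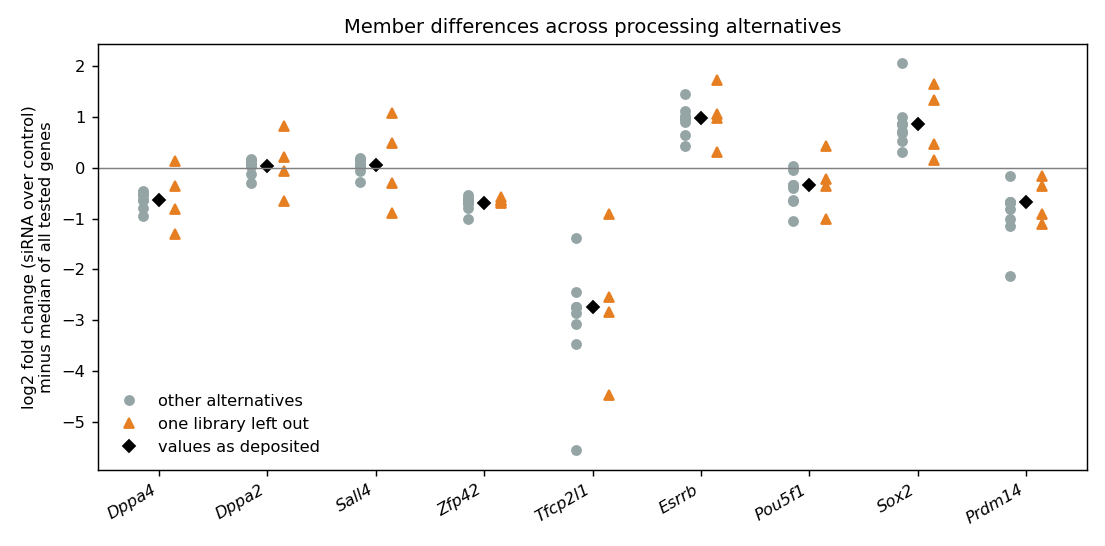
Difference of each tested member, as the log2 fold change (siRNA over control) minus the median of all tested genes, for the values as deposited (black diamonds), for alternatives that keep all 4 libraries (grey circles) and with 1 library left out (orange triangles). Zfp42 stays within -1.01 to -0.54, and Tfcp2l1 and Prdm14 also stay below 0. Esrrb and Sox2 stay above 0, while Dppa4, Dppa2, Sall4 and Pou5f1 fall on both sides.

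For the 5 tested members with a mean of at least 5 FPKM, the most similar profile over the 4 libraries was sought among 7455 genes, as the smallest distance between centred log2(FPKM + 1) values. It was Pa2g4 for Dppa4 at a distance of 0.15, Lbx2 for Dppa2 at 0.060, 0610012G03Rik for Zfp42 at 0.036, Tarbp2 for Sall4 at 0.084 and A930005H10Rik for Tfcp2l1 at 0.97. The median distance of all compared genes was 1.62 to 3.92, depending on the member. With 4 libraries such likeness is a description only.

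Among 14 relatives of the members by sequence, 6 passed the filter. In 2 of them both siRNA libraries were below both controls, and in 1 they were above, where all tested genes had 30.0% below and 8.60% above. The YY1-related genes differed among themselves. Yy2, which like Zfp42 arose from a Yy1 copy, had 24.1 and 22.9 FPKM in the siRNA libraries, against 45.1 and 106 FPKM in the controls (log2 fold change -1.52, limma adjusted p = 0.745). Yy1, a widely expressed zinc finger factor, had 16.1 and 82.4 FPKM in the siRNA libraries, against 13.9 and 15.9 FPKM in the controls (log2 fold change 1.25, limma adjusted p = 0.772). Yy1 was the 1 relative above both controls, but its siRNA replicate 1 was only just above control replicate 2, and siRNA replicate 2 was far higher. Yy2 was lower than the controls in both siRNA libraries. Sox15, a SOX factor close to SOX2, was higher than Sox2 on the FPKM scale in every library, with 5.78 and 12.5 FPKM in the siRNA libraries against 17.0 and 12.7 FPKM in the controls. Its siRNA replicate 2 was only just below control replicate 2. Esrrg, a receptor related to ESRRB, had 4.54 and 5.44 FPKM in the siRNA libraries against 8.53 and 4.88 FPKM in the controls. Esrra was listed at 4.36 FPKM in siRNA replicate 2 and at 0 in the other 3 libraries. The CP2-family relatives of Tfcp2l1 were detected throughout and overlapped between the groups. Tfcp2 had 2.48 and 6.82 FPKM in the siRNA libraries against 9.20 and 4.75 FPKM in the controls, and Ubp1 had 17.4 and 40.7 FPKM in the siRNA libraries against 19.8 and 23.0 FPKM in the controls. The other 7 relatives (Sox1, Sox3, Pou3f1, Pou5f2, Sall1, Sall2 and Sall3) stayed under 1 FPKM in every library.

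Of 21 other transcription factors of the network, 14 were tested, 3 lay below and 3 above both controls (all tested genes: 30.0% below, 8.60% above), and their median log2 fold change was 0.69, against -0.39 over all tested genes. Gbx2, a homeobox factor that acts downstream of LIF, had 7.49 and 36.6 FPKM in the siRNA libraries, against 1.91 and 0.972 FPKM in the controls (log2 fold change 2.90, limma adjusted p = 0.745). Klf2, a Krüppel-like factor of naive pluripotency, had 3.40 and 16.1 FPKM in the siRNA libraries, against 1.57 and 2.40 FPKM in the controls (log2 fold change 1.55, limma adjusted p = 0.759). For both, siRNA replicate 2 was several times higher than siRNA replicate 1. Klf4, Tbx3 and Tfap2c had 42.6, 19.7 and 34.2 FPKM in siRNA replicate 2 and at most 4.11 FPKM in any other library. The 3 that lay below were Zfp281, Myc and Etv5. All 21 summed to 92.4 and 285 FPKM in siRNA replicates 1 and 2, against 165 and 111 FPKM in the controls. The siRNA libraries thus held both extremes, and the list median was not taken for each siRNA library alone.

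Of 20 pluripotency-associated genes that are not such factors, 15 were tested, 6 lay below and 1 above both controls (all tested genes: 30.0% and 8.60%), with a median of -0.89. Dppa5a, an RNA-binding protein gene abundant in pluripotent cells, had 229 and 97.3 FPKM in the siRNA libraries, against 445 and 604 FPKM in the controls (log2 fold change -1.79, limma adjusted p = 0.745). Tet2, a 5-methylcytosine dioxygenase gene, had 5.16 and 0.115 FPKM in the siRNA libraries, against 12.1 and 12.9 FPKM in the controls (log2 fold change -2.37, limma adjusted p = 0.745). Fgf4, a known target of OCT4 and SOX2 named here after its values were seen, had 32.6 and 26.5 FPKM in the siRNA libraries, against 65.9 and 89.5 FPKM in the controls (log2 fold change -1.36, limma adjusted p = 0.745). Fbxo15 of the same list overlapped, with 94.6 and 196 FPKM in the siRNA libraries, against 174 and 129 FPKM in the controls. Targets of OCT4 and SOX2 were not tested as a set, and Fgf4 alone does not stand for them.

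Of 20 genes of LIF, FGF, WNT and BMP signalling, 16 were tested, 1 lay below and 4 above both controls (all tested genes: 30.0% and 8.60%), with a median of 0.43. All 20 summed to 135 and 265 FPKM in siRNA replicates 1 and 2, against 172 and 116 FPKM in the controls. Id1, a BMP target, had 11.7 and 30.1 FPKM in the siRNA libraries, against 2.88 and 9.55 FPKM in the controls (log2 fold change 1.63, limma adjusted p = 0.745). Smad1, a BMP signal transducer, had 1.91 and 19.3 FPKM in the siRNA libraries, against 1.81 and 0.647 FPKM in the controls (log2 fold change 1.84, limma adjusted p = 0.750). Of 20 cofactors of the members, 17 were tested, 6 lay below and 1 above both controls (all tested genes: 30.0% and 8.60%), with a median of 0.02. Mta3, a NuRD subunit, had 13.8 and 11.0 FPKM in the siRNA libraries, against 52.0 and 35.8 FPKM in the controls (log2 fold change -1.73, limma adjusted p = 0.745). Ogt, an O-GlcNAc transferase that modifies OCT4, had 64.2 and 19.0 FPKM in the siRNA libraries, against 76.5 and 182 FPKM in the controls (log2 fold change -1.72, limma adjusted p = 0.745). No gene of these 5 lists passed the threshold of 0.05 in either direction.

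**Figure D4:**
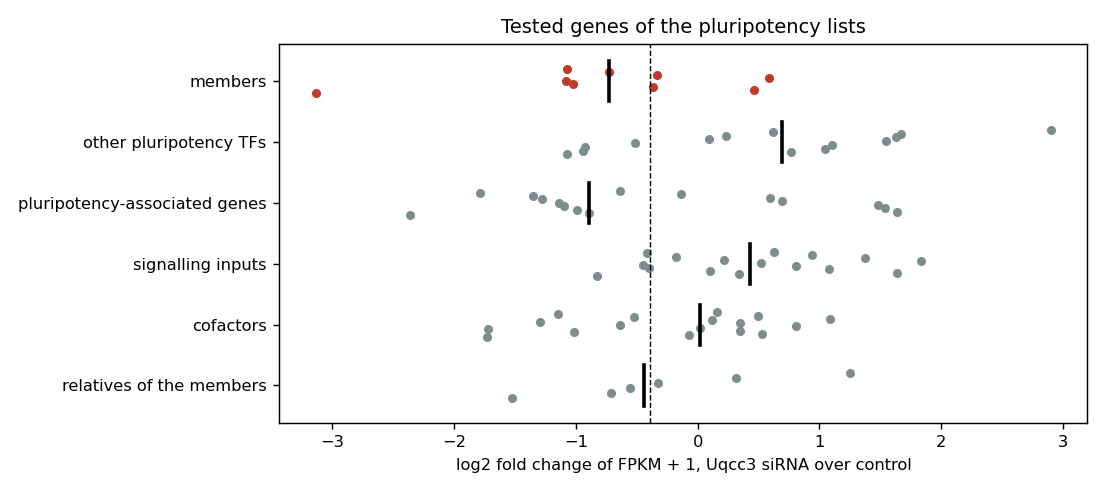
Log2 fold change of FPKM + 1 (siRNA over control) of every tested gene of the members (red) and of the 5 lists of related genes (grey), with the median of each list as a black bar and the median of all tested genes as a dashed line. The members' median is -0.73 against -0.39 for all genes, and every list spreads to both sides of that line.

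Genes of the 2-cell stage, some of them known targets of DPPA2 and DPPA4 in mouse embryonic stem cells, were looked at beside the members. They summed to 901 and 417 FPKM in the siRNA libraries, against 1410 and 1736 FPKM in the controls, and Duxf3 alone stayed under 1 FPKM. Of 9 such genes 8 were tested, and 6 lay below and 0 above both controls, where 30.0% of all tested genes lay below. Zscan4c and Zscan4f overlapped between the groups. This count was made on the values as deposited, without rescaling. The median log2 fold change of these 8 genes was -1.85, and none passed an adjusted p of 0.05. Usp17lb, a 2-cell deubiquitinase gene, had 100.2 and 17.3 FPKM in the siRNA libraries, against 201 and 183 FPKM in the controls (log2 fold change -2.17, limma adjusted p = 0.745). Obox6, an oocyte-specific homeobox family gene, had 285 and 138 FPKM in the siRNA libraries, against 600.3 and 560 FPKM in the controls (log2 fold change -1.54, limma adjusted p = 0.745). In both genes siRNA replicate 2 was the lowest library, as in the other tested genes of this list except Tcstv3. Tcstv3 had 120 and 153 FPKM in siRNA replicates 1 and 2, against 168 and 192 FPKM in the controls. Dppa2 and Dppa4 were lowest in siRNA replicate 1. A link between the pair and these genes was not tested. Usp17lb, Obox6 and the Zscan4 and Tcstv genes of the list belong to multicopy families. The authors' counting may have split their reads between copies, so these genes are not all separate observations.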

How the data were processed

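RNA was measured in 2 Uqcc3 siRNA and 2 control libraries, grouped by treatment label. Replicate numbers follow accession order and pair no libraries. Sample titles end differently in the 2 groups, and if the ending marks a batch, batch and group cannot be told apart. The values deposited by the authors are FPKM per gene with a lower and an upper bound, 1 table for each library, as the file headers show. Tools named in the submitters' processing notes are Cufflinks 2.2.1, Cuffdiff 2.2.1, STAR 2.7.3a, SAMtools 1.7 and Trim Galore 0.6.5. The notes also name mm10, the build of all gene coordinates here, and no annotation release. Strand and overlapping genes were taken from GENCODE M21.

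No counts were used. Rows of 1 gene identifier were summed. Tested genes had 1 FPKM or more in at least 2 libraries, and 2 genes marked as failed estimates in the tables were left out (the cofactor Rif1 among them). Differences of log2(FPKM + 1), pseudocount 1, were fitted with limma 3.58.1 in R 4.3.3, with an abundance trend, two-sided, Benjamini-Hochberg adjusted over 12390 genes. This scale understates changes of low genes. The fit was checked on simulated data with 1 spread shared by all genes and libraries, in no case taken from the siRNA libraries. The siRNA libraries correlated with each other at 0.631 and the controls at 0.875. The check therefore does not show how the fit performs on these libraries. Fragment numbers were derived from the bounds, as (2 × FPKM / (upper bound − FPKM)) squared. Depth was the median, over genes with 1 annotated transcript of at least 1000 bases and at least 100 such fragments, of the fragments that FPKM implies. These numbers are approximate, cover counting error only and entered no test.

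The members and the 11 gene lists were chosen with earlier results of these data known. The text names all members, Uqcc3, relatives with at least 1 FPKM in any library, the 2 genes of each other list with the smallest p (where tested), and for each member with a mean of at least 5 FPKM the gene of most similar profile. Some further list genes, Fgf4 among them, were named outside this rule after their values were seen. Alternatives were other pseudocounts, filters and scalings, a constant prior variance, the largest row of a gene leaving out each library and, added after seeing the data, a replicate block.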

Additional observations from a re-analysis of the deposited data

How the results depend on the processing

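Over 14 alternatives, Zfp42, Dppa4, Tfcp2l1 and Prdm14 kept a negative log2 fold change wherever they were fitted (the last 2 were not tested with a filter at 5 FPKM), and none of the 9 tested members passed an adjusted p of 0.05. Genes past that threshold numbered 0 under 12 alternatives, 1 with the replicate block below and 1477 (11.9%) without siRNA replicate 1, so leaving out a library gave 0 to 1477. The lone siRNA library is then assumed to vary like the others. None of the 1477 was a member, while Uqcc3 was among them (log2 fold change -3.09, adjusted p = 0.0238). Over all alternatives the adjusted p of Uqcc3 ran from 0.0238 to 1.00. Members below both controls numbered 2 of 4 with a filter at 5 FPKM (34.8% of all tested genes) and 2 of 9 with median-of-ratios scaling (19.1%). They numbered 3 of 9 with TPM (21.4%) and 3 of 9 with quantile normalization (18.7%). The count was 4 under the other 6 that kept all libraries (20.1% without a filter, 30.0% under the other 5). Those 6 cannot change the order of libraries within a member, so that 4 only repeats the count as deposited. The median of all tested genes moved to -0.08 with TPM, -0.06 with median of ratios and 0.01 with quantiles, against -0.39 as deposited. Summed FPKM was 596011 and 436400 in siRNA replicates and 682974 and 695428 in controls.

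Reversed signs followed these scalings. Sall4 stood at 0.081, 0.071 and 0.033 with TPM, median of ratios and quantiles, and Dppa2 at 0.065, 0.056 and 0.085. With quantiles Pou5f1 stood at 0.038 and the members' median at 0.033. Leaving out a library reversed Sall4 (0.0032 without control replicate 2 and 0.51 without siRNA replicate 1, range -1.19 to 0.51), Dppa2 (0.24 without siRNA replicate 1, range -0.97 to 0.24), Pou5f1 (0.13 without siRNA replicate 2, range -1.58 to 0.13), Esrrb (-0.078 without control replicate 1, range -0.078 to 1.25) and Sox2 (-0.33 without control replicate 2, range -0.33 to 1.26). The cause was not tested. The labels give no replicate numbers, but the names of the deposited tables carry a 2 and a 3 in each group. Taken as a replicate block, an alternative added after seeing the data, they gave 1 gene past the threshold (Snord47, higher with siRNA) and no member. Deviations of same-numbered libraries correlated at 0.058 over genes, so nothing shows that the numbers pair the libraries. Pou5f1, Sox2, Nanog and Prdm14 rested on 0 to 134 fragments a library, and Sox2 differed 81.4 times between the controls.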

Other observations

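Markers of other stages and cell types were read beside the members. No gene of these lists passed an adjusted p of 0.05 in limma. As background, 30.0% of the genes in that fit were below both controls and 8.60% were above. Of 10 oocyte transcripts all were tested, 2 lay below and 2 above both controls, and their summed level was 1765 and 1409 FPKM in the siRNA libraries, against 1862 and 2173 FPKM in the controls. Most of that sum was Oosp1, with 1401 and 859 FPKM in the siRNA libraries, against 1524 and 1795 FPKM in the controls. The median log2 fold change of the 10 was 0.28, so the sum does not speak for the list. Zp3, a zona pellucida gene, had 32.4 and 5.39 FPKM in the siRNA libraries, against 54.6 and 66.4 FPKM in the controls (log2 fold change -2.07). Nlrp5, a gene of the subcortical maternal complex, had 14.1 and 28.6 FPKM in the siRNA libraries, against 11.3 and 6.19 FPKM in the controls (log2 fold change 1.17). Of 14 trophectoderm and primitive endoderm markers, 5 were tested, 0 lay below and 1 above both controls, and Cdx2, Elf5, Krt8, Sox17 and Foxa2 were listed at 0 in all 4 libraries. The 1 above was Eomes, a T-box factor, with 1.7 and 3.04 FPKM in the siRNA libraries, against 0.0204 and 0.0573 FPKM in the controls. Eomes met the filter through the siRNA libraries alone, which by itself fixed this order. Dab2, an endoderm adaptor gene, had 27.3 and 15.8 FPKM in the siRNA libraries, against 20.3 and 7.57 FPKM in the controls.

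Of 9 cumulus and granulosa markers, 7 stayed under 1 FPKM in every library, and the 9 summed to 8.42 and 1.26 FPKM in the siRNA libraries, against 3.31 and 14.1 FPKM in the controls. The tested one was Tnfaip6, with 3.6 and 0.602 FPKM in the siRNA libraries, against 2.91 and 14.1 FPKM in the controls. The 7 sperm markers summed to 47.1 and 22.6 FPKM in the siRNA libraries, against 26.5 and 37.2 FPKM in the controls. Pgk2 had 8.19 and 0.0542 FPKM in the siRNA libraries, against 3.42 and 17.2 FPKM in the controls, and Ldhc had 21.3 and 22.4 FPKM in the siRNA libraries, against 15.9 and 17.9 FPKM in the controls. Of the 4 sperm markers tested, 0 lay below and 1 above both controls. The 7 blood markers summed to 29.5 and 9.17 FPKM in the siRNA libraries, against 33.5 and 34.5 FPKM in the controls. Of the 4 blood markers tested, 1 lay below and 0 above both controls. Hba-a1 had 9.75 and 0 FPKM in the siRNA libraries, against 9.26 and 18.8 FPKM in the controls. Hba-a2, its near-identical copy, had 6.89 and 0 FPKM in the siRNA libraries, against 9.44 and 9.76 FPKM in the controls. The part of these markers in the members' differences was not tested.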
